A study of Mus musculus with 14 samples.

Results

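Dcstamp, Ocstamp, Atp6v0d2, Acp5, Nfatc1 and Tnfrsf11a are 6 genes known from osteoclasts and from fused macrophages, and their levels were followed across sorted mouse brain macrophages and blood monocytes. They are 6 of the 17178 gene symbols to which the array's probes could be assigned through RefSeq accessions, and all 6 were found. They were chosen by their measured levels in the 4 groups of these samples, so their levels and differences are given as a description. The 6 were part of the fit across all genes, and its calls for them are counted beside the share of all genes called, with no p-value. Dcstamp, Atp6v0d2 and Acp5 each have 1 probe, while Ocstamp, Nfatc1 and Tnfrsf11a have 2 probes each.

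Osteoclasts are the multinucleated bone-resorbing cells that arise when cells of the monocyte and macrophage lineage fuse. The cytokine RANKL binds the receptor RANK, the product of Tnfrsf11a, and the signal leads to the transcription factor Nfatc1, which drives the fusion proteins DC-STAMP, OC-STAMP and Atp6v0d2 and the enzyme Acp5. Macrophages elsewhere use the same fusion proteins to make foreign body giant cells, with IL-4 rather than RANKL as the usual signal, and Acp5 is also made by tissue macrophages that do not fuse.

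Gene expression was measured on 14 Agilent 1-colour arrays, 1 per sample. All cells came from male mice of the YARG strain aged 12 to 16 weeks, a line that reports arginase-1 (Arg1) expression by fluorescence, so the blood controls carried the reporter as well. Brain macrophages that were positive (Arg1+, 4 samples) or negative (Arg1-, 4 samples) for the reporter were taken 1 day after traumatic brain injury (TBI) by controlled cortical impact. Blood monocytes were taken 1 day after TBI (3 samples) or from untreated mice (3 samples, called normal). No sample of brain macrophages from uninjured mice was analysed here, so a difference between brain and blood cannot be told apart from one of tissue or of cell isolation. The labels do not say whether replicates are separate animals, so p-values measure only the spread between samples, which may be technical. In bulk samples like these, fewer cells that make an RNA and less of it per cell cannot be told apart.

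A level is the log2 of a probe's background-subtracted signal divided by that array's 75th percentile, with any ratio below 0.05 set to 0.05. The floor of this scale is therefore -4.32. The 75th percentile lay between 119.4 and 418.5, and the share of probes well above background between 50.4% and 68.7%. The arrays lay on 4 slides, slide 4 holding no blood sample, and arrays of different groups on 1 slide deviated together (r of 0.04 to 0.59, median 0.23, over 19 pairs), so differences within each slide are given as well. Arg1 itself was at 6.41 in the Arg1+ samples, at 3.16 in the Arg1- samples and at -3.48 in post-TBI blood (means), so the sort labels matched the array. The Arg1- samples were 3.25 ± 0.43 (SE) below the Arg1+ samples but 6.65 ± 0.43 above post-TBI blood for Arg1 (limma, adjusted p = 0.000527 and 5.87e-08).

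The 6 genes did not share a pattern. Dcstamp was measured above background in the Arg1- brain macrophages alone, Atp6v0d2 in the Arg1+ brain macrophages alone, and Ocstamp in every group except the Arg1+ one. Acp5 was highest in Arg1+ cells and fell from there to Arg1- cells, post-TBI blood and normal blood. Nfatc1 was lowest in Arg1+ cells. Tnfrsf11a was at like levels in both brain groups, above blood.

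**Figure D1:**
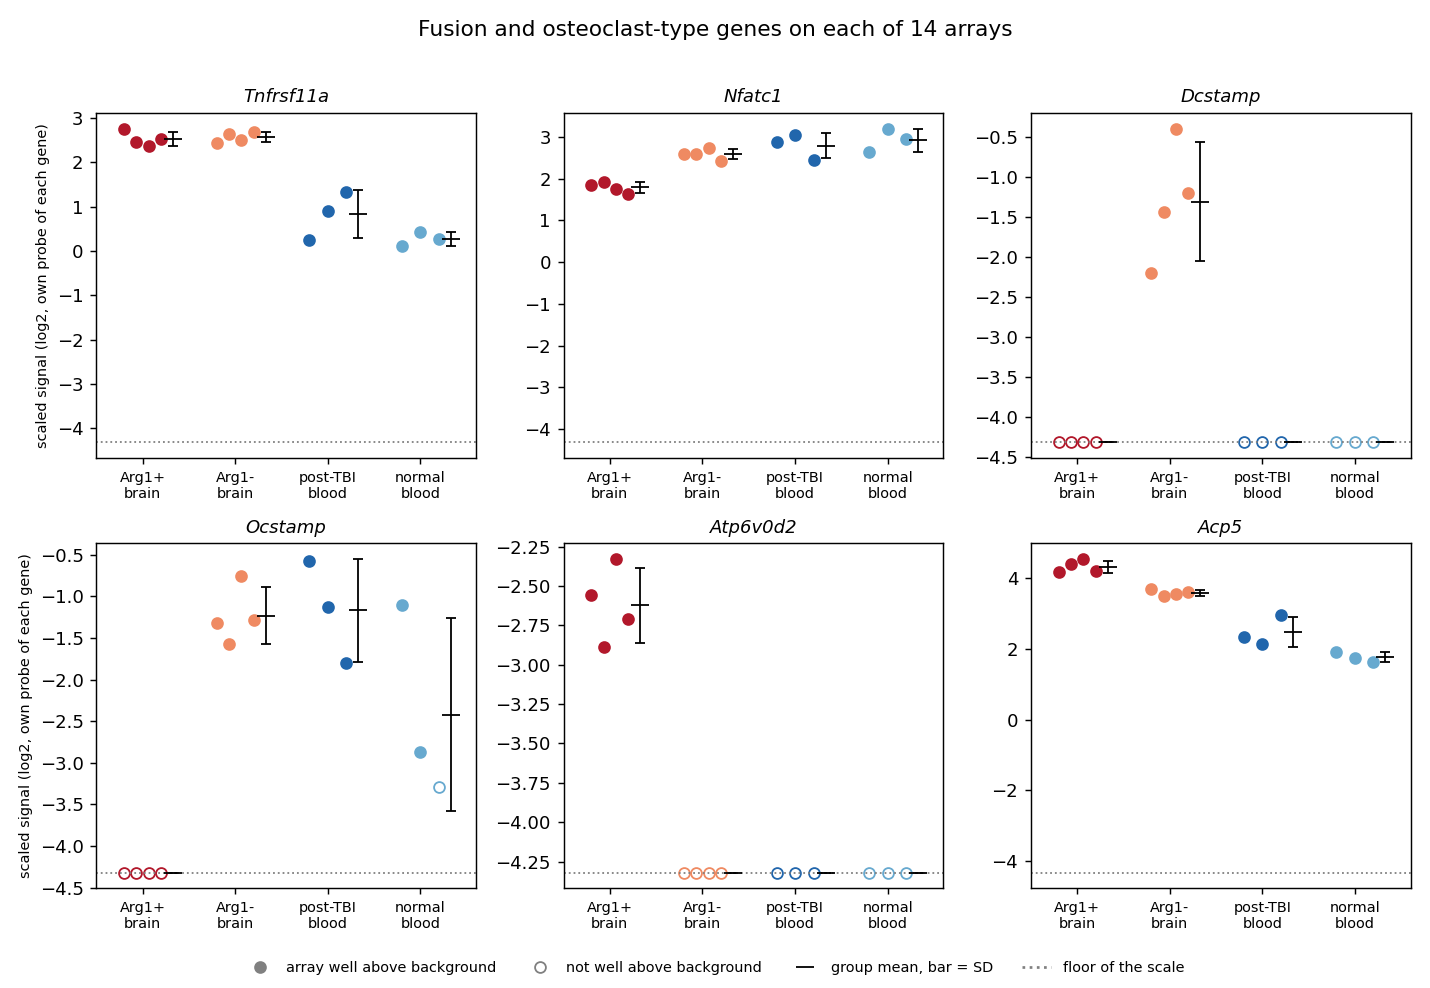
Level of each of the 6 genes (log2 scaled signal of the brighter probe, one panel per gene, own axis range) on the 14 arrays, by group. Filled points were well above background, open points were not, black bars give group mean and SD, and the dotted line is the floor at -4.32. Dcstamp leaves the floor in the 4 Arg1- samples, Atp6v0d2 in the 4 Arg1+ samples, and Ocstamp in every sample except the 4 Arg1+ ones.

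Between Arg1+ and Arg1- brain macrophages, limma called 5 of the 6 genes at an adjusted p under 0.05, as it did 5.04% of all genes, with 2.14% of all 21972 genes tested called higher and 2.9% called lower. Acp5 and Atp6v0d2 were the 2 called higher in Arg1+ cells, and Dcstamp, Ocstamp and Nfatc1 the 3 called lower. The same 5 had no overlap between the arrays of both groups, where 7.49% of all genes were wholly higher and 7.37% wholly lower. Because the genes were picked with these levels in view, nothing is read from either count. All 6 passed the filter on dim probes, but Dcstamp and Atp6v0d2 passed it only through the 4 arrays on which they are high.

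The comparisons of both brain groups with blood share the 3 post-TBI blood samples. In Arg1+ cells against that blood, Acp5, Atp6v0d2 and Tnfrsf11a were called higher (19.9% of all genes) and Nfatc1 and Ocstamp lower (20% of all genes), where 39.9% of all genes were called in either direction. The same 3 and 2 did not overlap with blood, as was so for 19.2% and 20.4% of all genes. In Arg1- cells against it, Acp5, Dcstamp and Tnfrsf11a were called higher (17% of all genes) and 0 lower (16.4%), where 33.4% were called in either direction. The same 3 did not overlap with blood and 0 were wholly lower, against 18.9% and 18% of all genes. The median difference of the 6 genes was -0.42 in Arg1+ against Arg1- cells, 0.85 in Arg1+ cells against blood and 0.56 in Arg1- cells against blood, beside medians of 0, -0.03 and -0.02 over all genes.

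Tnfrsf11a encodes RANK, the receptor through which RANKL acts on osteoclast precursors. Its brighter probe was at 2.75, 2.45, 2.37 and 2.52 in Arg1+ replicates 1 to 4 and at 2.44, 2.63, 2.51 and 2.68 in Arg1- replicates 1 to 4. The 3 post-TBI blood samples (replicates 1, 3 and 4) were at 0.25, 0.90 and 1.32, and the 3 normal blood samples (replicates 2, 3 and 4) at 0.12, 0.43 and 0.27. The 8 brain samples overlapped each other and all lay above the 6 blood samples. The brain groups differed by -0.04 ± 0.19 (SE, Arg1+ minus Arg1-), and within slides 1 to 4 by 0.07, -0.07, -0.11 and -0.06. Arg1+ cells exceeded post-TBI blood by 1.70 ± 0.21, a 3.25-fold difference, and Arg1- cells exceeded it by 1.74 ± 0.21, a 3.35-fold difference. Sums of the scaled signal of 9 tested microglia markers were likewise higher in each brain sample than in each blood sample. They were 52.51 to 82.15 in Arg1+ and 41.73 to 58.79 in Arg1- samples. In post-TBI and normal blood they were 21.78 to 24.89 and 10.83 to 26.65. limma called 7 of these markers higher and 1 lower in Arg1+ cells than in post-TBI blood (19.9% and 20% of all genes). In Arg1- cells it called 6 and 1 (17% and 16.4% of all genes). The part of microglia in the brain and blood differences of Tnfrsf11a and Acp5 was not tested.

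The dimmer Tnfrsf11a probe gave the same order of brain over blood, with a wider gap. It was between 0.67 and 1.83 in Arg1+ samples, between 0.95 and 1.52 in Arg1- samples, between -2.52 and -1.86 in post-TBI blood and between -1.74 and -1.32 in normal blood. On this probe Arg1+ cells exceeded post-TBI blood by 3.42 ± 0.27 and Arg1- cells by 3.38 ± 0.27. Both probes of Tnfrsf11a were well above background on all 14 arrays, blood included. The probes disagreed within blood: post-TBI minus normal blood was 0.55 ± 0.22 on the brighter probe, with overlapping samples, and -0.58 ± 0.29 on the dimmer probe, without overlap. No direction between the blood groups is therefore given for Tnfrsf11a.

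The ligand of RANK was hardly measured. The probes of Tnfsf11, which encodes RANKL, were well above background on at most 1 of 14 arrays, and that of Tnfrsf11b, the decoy receptor osteoprotegerin, on 0 of 14, so neither entered the test. Of 26 tested genes that act downstream of RANK, limma called 1 higher and 3 lower in Arg1+ than in Arg1- cells (2.14% and 2.9% of all genes). Their median difference was 0.04, against 0 over all genes. Ikbkb, a kinase that activates NF-kB, was lower by 0.63 (difference -0.63 ± 0.13, adjusted p = 0.0118), a call that was lost after normexp and without Arg1- replicate 3. The calls of Sqstm1, Src and Map3k14 (adjusted p = 0.0445, 0.0423 and 0.0324) were each lost in 9 or more of 23 alternative settings. Traf6, the adaptor that RANK recruits, differed by 0.18 ± 0.21 (adjusted p = 0.769). Against post-TBI blood, 7 of these 26 genes were called higher and 8 lower in Arg1+ cells (19.9% and 20% of all genes). In Arg1- cells 4 were called higher and 7 lower (17% and 16.4% of all genes).

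Other receptors that feed the same pathway were measured beside RANK. Csf1r, the receptor for M-CSF that osteoclast precursors need, differed by 0.13 ± 0.24 between the brain groups and by -0.38 ± 0.26 between Arg1+ cells and blood (adjusted p = 0.888 and 0.279). Il4ra, the receptor chain for the fusion signal IL-4, was higher in Arg1+ and in Arg1- cells than in post-TBI blood, by 2.49 ± 0.14 and 1.99 ± 0.14 (adjusted p = 4.31e-09 and 9.65e-08). Its brain difference of 0.50 ± 0.13 passed the test (adjusted p = 0.0413), but that call was lost in 13 of 23 alternative settings. Trem2, an immunoreceptor that co-stimulates osteoclast formation, was likewise higher than in blood, by 2.22 ± 0.26 and 1.69 ± 0.26 (adjusted p = 6.42e-06 and 0.000129), and its signalling partner Tyrobp differed from blood by 0.13 ± 0.24 and -0.02 ± 0.25 (adjusted p = 0.733 and 0.966).

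Nfatc1 is the transcription factor that RANK signalling induces and that directs the osteoclast programme. Its brighter probe was at 1.85, 1.93, 1.75 and 1.63 in Arg1+ replicates 1 to 4 and at 2.59, 2.59, 2.74 and 2.43 in Arg1- replicates 1 to 4. Post-TBI blood replicates 1, 3 and 4 were at 2.88, 3.05 and 2.45, and normal blood replicates 2, 3 and 4 at 2.64, 3.18 and 2.94. Each Arg1+ sample lay below each of the other 10 samples, while the Arg1- and both blood groups overlapped. Arg1+ cells were 1.74-fold below Arg1- cells (difference -0.80 ± 0.16), with -0.59, -0.84, -0.96 and -0.81 within slides 1 to 4. They were 2.00-fold below post-TBI blood (-1 ± 0.17), and Arg1- cells differed from that blood by -0.21 ± 0.17.

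The dimmer Nfatc1 probe kept the Arg1+ group lowest in its mean but not in each sample. It was at -1.90, -1.80, -1.30 and -1.78 in Arg1+ replicates 1 to 4 and at -1.01, -1.54, -1.17 and -1.16 in Arg1- replicates 1 to 4. Arg1+ replicate 3 lay inside the Arg1- range and Arg1- replicate 2 inside the Arg1+ range, so these groups overlapped. The difference of the brain groups was -0.48 ± 0.25 on this probe, against -0.80 on the brighter one. On the dimmer probe both brain groups were below post-TBI blood without overlap, by -1.28 ± 0.27 in Arg1+ and -0.80 ± 0.27 in Arg1- cells. So the place of the Arg1- group relative to blood depended on the probe of Nfatc1, and that of the Arg1+ group below blood did not.

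Of 24 tested osteoclast transcription factors that work with Nfatc1, limma called 0 between Arg1+ and Arg1- cells (5.04% of all genes). An unadjusted p under 0.05 was found for 5, and the median difference was 0.01. Nfatc2 and Nfatc3, its family members, differed by -0.51 ± 0.17 and 0.09 ± 0.20 (adjusted p = 0.107 and 0.916). The arrays of both groups did not overlap for Nfatc2, lower in Arg1+ cells, and for Tfec, higher by 0.89 ± 0.29 (adjusted p = 0.0962), a relative of Mitf. Against post-TBI blood, 9 of these 24 were called higher and 4 lower in Arg1+ cells (19.9% and 20% of all genes). The counts against that blood were the same in Arg1- cells (17% and 16.4% of all genes). Mitf, which acts on the Acp5 promoter in osteoclasts, was higher by 2.55 ± 0.20 in Arg1+ and by 2.21 ± 0.20 in Arg1- cells (adjusted p = 1.42e-07 and 1.13e-06), Tfec by 3.16 ± 0.31 and 2.27 ± 0.31 (adjusted p = 1.19e-06 and 4.86e-05), and Fos fell by 0.82 and 0.85 (adjusted p = 0.00593 and 0.00596).

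Calcium signalling is the route by which Nfatc1 is activated. Of 25 tested ITAM and calcium signalling genes, limma called 0 higher and 1 lower in Arg1+ than in Arg1- cells (2.14% and 2.9% of all genes). An unadjusted p under 0.05 was found for 7. The gene called lower was Itpr2, a calcium release channel (-1.06 ± 0.18, adjusted p = 0.00289). Of 16 tested genes listed as repressors of osteoclast formation, 6 had an unadjusted p under 0.05. Among the 16, 0 were called higher and 2 lower (2.14% and 2.9% of all genes). These were Ciita (-4.10 ± 0.30, adjusted p = 6.04e-06), known mainly as the activator of MHC class II genes, and Irf4 (-2.99 ± 0.20, adjusted p = 4.26e-06), a lymphoid and dendritic cell factor also described as promoting osteoclast formation, which was above background on 0 of 4 Arg1+ arrays and so at least 6.90-fold lower. Ciita is also on the dendritic cell marker list. Irf8, which holds back Nfatc1, differed by 0.64 ± 0.20 (adjusted p = 0.088).

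Dcstamp encodes DC-STAMP, a membrane protein needed for fusion of osteoclasts and giant cells and first described in dendritic cells. It was at -2.20, -1.44, -0.40 and -1.20 in Arg1- replicates 1 to 4, and well above background on each of these arrays. It was at the floor of -4.32 in all 4 Arg1+ samples, all 3 post-TBI blood samples and all 3 normal blood samples. Before scaling, its processed signal was 50.8, 55.5, 317 and 103 in Arg1- replicates 1 to 4, between -2.81 and 6.12 in the Arg1+ samples and between 0.366 and 8.06 in the 6 blood samples. The Arg1- samples thus stood apart from the other 10, and replicate 3, the brightest array by its 75th percentile, was the highest of them.

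Since no array of the other groups measured it, the Dcstamp difference is given as a bound. With this floor, Dcstamp was at least 6.99-fold lower in Arg1+ than in Arg1- cells. It was at least 8.06-fold higher in Arg1- cells than in post-TBI blood. The bound sets the Arg1- mean of -1.31 ± 0.74 (SD, n = 4) against the dimmest level of any probe well above background on each dim array. On the post-TBI blood arrays that level was the floor itself, so the bound against blood is the distance from the floor. It is not a detection limit of the Dcstamp probe. Over 23 alternative settings, Arg1+ minus Arg1- ranged from -3.31 to -1.01. Within slides 1 to 4, Arg1+ minus Arg1- was -3.12, -2.13, -2.88 and -3.92, the Arg1+ value being the floor each time. Between Arg1+ cells and blood, and between the blood groups, Dcstamp had no measured level on either side, so no order among these 3 groups can be given.

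Ocstamp encodes OC-STAMP, a membrane protein related to DC-STAMP that acts with it in fusion. Its brighter probe was at -1.32, -1.57, -0.75 and -1.28 in Arg1- replicates 1 to 4 and at the floor of -4.32 in all 4 Arg1+ samples. Post-TBI blood replicates 1, 3 and 4 were at -0.57, -1.13 and -1.80, and normal blood replicates 2, 3 and 4 at -1.10, -2.87 and -3.29, the last not well above background. Unlike Dcstamp, Ocstamp was measured in blood, and the Arg1+ group was the one in which it was not. Arg1- cells and post-TBI blood overlapped, with a difference of -0.07 ± 0.43. With this floor, Ocstamp in Arg1+ cells was at least 7.38-fold lower than in Arg1- cells and at least 7.73-fold lower than in post-TBI blood. Over 23 alternative settings, these differences ranged from -3.20 to -1.09 and from -3.47 to -1.16.

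The second Ocstamp probe repeated this order. It was at -2.66, -2.44, -1.74 and -2.36 in Arg1- replicates 1 to 4, and at the floor in Arg1+ replicates 1, 3 and 4 and at -4.27 in replicate 2, none of these 4 well above background. It was between -2.63 and -1.55 in post-TBI blood and between -3.62 and -2.41 in normal blood. On this probe and with this floor, Ocstamp was at least 3.49-fold lower in Arg1+ than in Arg1- cells. It was at least 3.81-fold lower in Arg1+ cells than in post-TBI blood. Within slides 1 to 4, the brighter probe gave -3.04, -3.00, -2.75 and -3.57 for Arg1+ minus Arg1- and the dimmer probe -1.96, -1.66, -1.89 and -2.53. Arg1- replicate 3, highest for Dcstamp, was also the highest Arg1- sample on both Ocstamp probes.

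**Figure D2:**
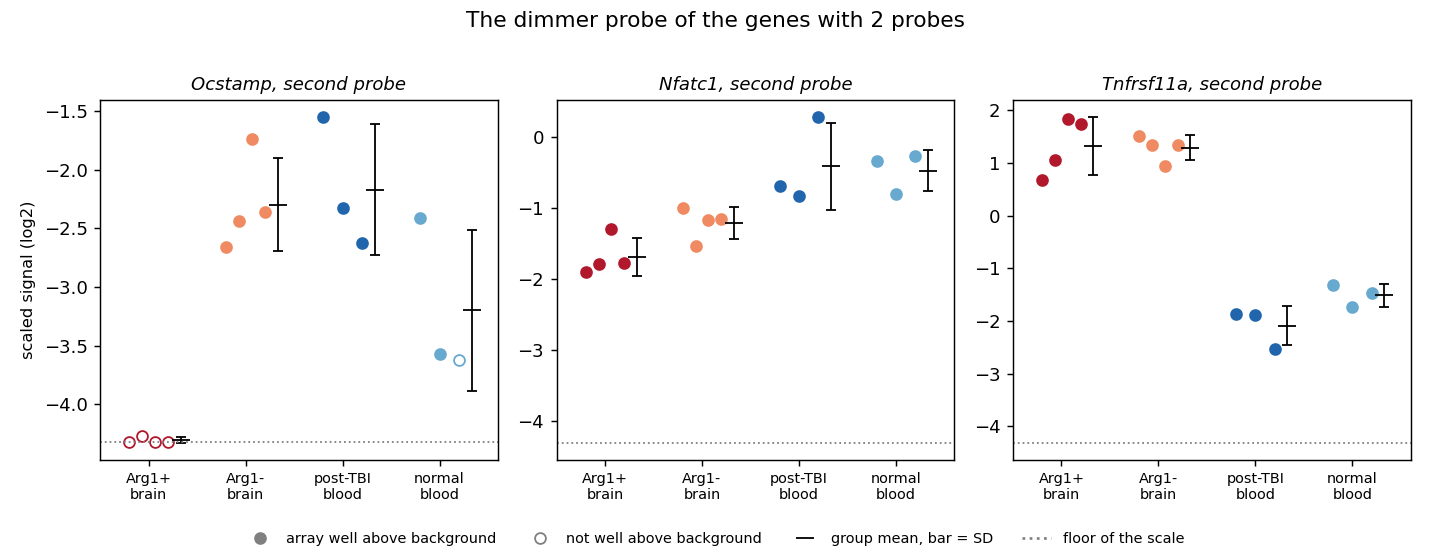
Level of the dimmer probe of Ocstamp, Nfatc1 and Tnfrsf11a (log2 scaled signal) on the 14 arrays, with the same symbols as for the brighter probes. Ocstamp stays at or within 0.05 of the floor in the Arg1+ samples, the Nfatc1 brain groups overlap, and Tnfrsf11a is above blood in all 8 brain samples.

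Markers of some other cell types moved with Dcstamp and Ocstamp between the brain groups, where 2.9% of all genes were called lower and 2.14% higher. Of 9 tested dendritic cell markers, 8 were called lower in Arg1+ than in Arg1- cells and 0 higher (median difference -2.50, against 0 over all genes). Their summed signal, in units of the array's 75th percentile, ranged from 66.7 to 105 in the Arg1- samples, from 4.98 to 17.3 in the Arg1+ samples, from 43.0 to 63.8 in post-TBI blood and from 34.0 to 69.7 in normal blood. Of 10 tested neutrophil markers, 8 were called lower in Arg1+ cells and 0 higher, with sums of 29.5 to 138 in Arg1-, 3.02 to 10.4 in Arg1+, 9.70 to 86.0 in post-TBI blood and 1.84 to 26.0 in normal blood. Of 6 tested eosinophil markers, 4 were called lower, with sums of 3.79 to 5.86 in Arg1- and 0.507 to 0.807 in Arg1+ samples, beside 57.6 to 68.5 in post-TBI blood and 42.2 to 74.7 in normal blood. Of 6 tested NK cell markers only Klrd1 was called (-3.55 ± 0.44, adjusted p = 0.000235). NK sums were 0.868 to 2.14 in Arg1-, 0.320 to 0.429 in Arg1+, 0.653 to 1.81 in post-TBI and 0.580 to 3.095 in normal blood samples. Of the macrophage and monocyte markers only Ly6c2 was called, lower in Arg1+ cells (-1.01 ± 0.20, adjusted p = 0.00831). No tested B or T cell marker was called.

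The sums can be set beside Dcstamp and Ocstamp sample by sample. Dendritic cell markers summed to 34.0 or more in each blood sample. Dcstamp was not above background in blood, and Ocstamp was, except in normal blood replicate 4. Within the Arg1- group, replicate 4 had the highest dendritic cell sum, replicate 2 the highest neutrophil sum and replicate 3 the highest level of both fusion genes. The brightest dendritic cell marker, H2-Aa, weighs most in its sum, in blood as well. Its mean was 6.34 in Arg1- samples, 5.34 in post-TBI blood and 5.31 in normal blood. Against post-TBI blood, limma called Ccr7 of this list higher in Arg1- cells (3.14 ± 0.46, adjusted p = 9.51e-05). It called Batf3 lower (-1.56 ± 0.33, adjusted p = 0.0021) and none of the other tested markers. The order of 4 samples does not tell how much of either gene came from such cells. Within both lists the markers differed on the Arg1+ arrays. H2-Aa and Itgax of the dendritic cell list were above background on all 4. The neutrophil markers S100a8, S100a9, Camp, Ngp, Ltf, Lcn2, Mpo and Retnlg were so as well. Ciita, Ccr7 and Batf3 were above background on 3 of 4. Flt3, Cd209a, Xcr1 and Cxcr2 were so on 1 of 4, and Kmo and Elane on 0 of 4. All 19 tested dendritic cell and neutrophil markers were above background on the 4 Arg1- arrays. The part of such cells in the Dcstamp and Ocstamp differences was not tested.

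**Figure D3:**
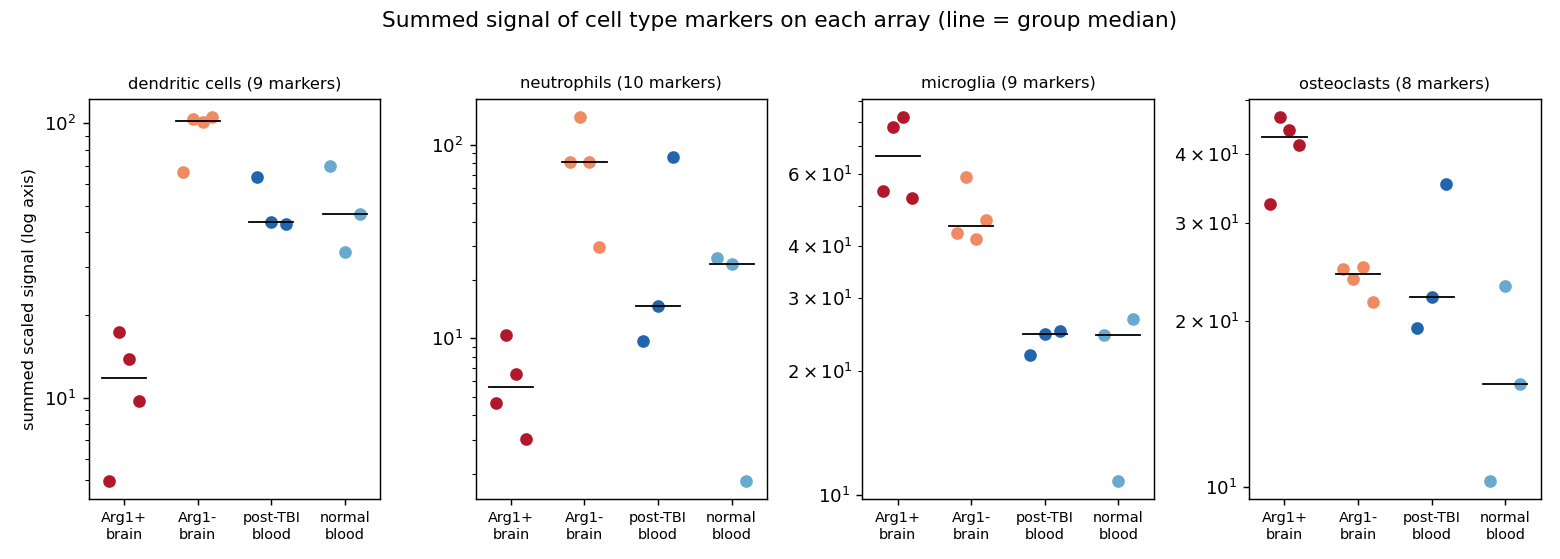
Summed scaled signal of the tested markers of dendritic cells, neutrophils, microglia and osteoclasts on each of the 14 arrays, by group, on log axes with the group median as a line. Dendritic cell and neutrophil sums are lower in every Arg1+ sample than in every Arg1- sample. The osteoclast sum is 32.4 or more in Arg1+ and 25.0 or less in Arg1- samples. It includes Acp5 and Ocstamp, which were chosen by their levels here, so this gap partly restates Acp5. Of its genes, only Ctsk and Acp5 were called higher in Arg1+ than in Arg1- cells, and Ocstamp was called lower.

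The genes most like Dcstamp over the 14 arrays were found by the root mean square difference of the centred levels. Ccl22, a chemokine of dendritic cells and macrophages, was closest, at 0.45 log2 units, with a mean of -1.24 ± 0.65 (SD) in the Arg1- samples and the floor in the other 3 groups. Cacnb3, a calcium channel subunit, followed at 0.48 and Ccnd2, a cyclin, at 0.50, both above background in every group. For Ocstamp the closest were Stat4, a transcription factor of cytokine signalling (0.60), H2-Eb2, an MHC class II chain (0.61), and Kmo, an enzyme of the kynurenine pathway (0.68). Kmo was on the dendritic cell list, so it is counted there as well.

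Other genes linked to macrophage fusion went both ways between the brain groups. Of 24 tested, limma called 3 higher and 3 lower in Arg1+ than in Arg1- cells (2.14% and 2.9% of all genes). Their median difference was 0.21, against 0 over all genes. The tetraspanin Cd9, the scavenger receptor Cd36 and the membrane glycoprotein Pdpn were higher, by 1.28 ± 0.26, 2.21 ± 0.24 and 1.64 ± 0.24 (adjusted p = 0.00885, 8.28e-05 and 0.00106). The cadherin Cdh1, which IL-4 induces in fusing macrophages, fell by 1.55 (SE 0.31, adjusted p = 0.00862), and the tetraspanin Tspan13 by 1.76 (SE 0.22, adjusted p = 0.000213). Cdh1 was above background on all 4 Arg1- arrays and on 1 of 4 Arg1+ arrays, and it was not above background on any post-TBI blood array. Its call between the brain groups was lost with a floor of 0.2. The lower call of Dock5 (adjusted p = 0.0216) was lost in 6 of 23 alternative settings.

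Surface receptors of fusion were set against blood as well. Cd47 and Sirpa, a ligand and receptor pair that regulates fusion, differed between the brain groups by 0.07 ± 0.13 and 0.44 ± 0.26 (adjusted p = 0.884 and 0.441), and Cd44 by -0.12 ± 0.17 (adjusted p = 0.85). Cd47 and Cd44 were lower in Arg1+ and in Arg1- cells than in post-TBI blood (Cd47 -0.87 ± 0.14 and -0.94 ± 0.14, adjusted p = 0.000197 and 0.000138; Cd44 -0.82 ± 0.19 and -0.70 ± 0.19, adjusted p = 0.00275 and 0.00947). Of the 24 fusion genes, 12 were called higher and 7 lower in Arg1+ cells than in that blood (19.9% and 20% of all genes). In Arg1- cells 9 were called higher and 9 lower (17% and 16.4% of all genes).

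Atp6v0d2 encodes the d2 subunit of the membrane part of the vacuolar proton pump, which is needed for fusion of osteoclast precursors. It was at -2.56, -2.89, -2.33 and -2.71 in Arg1+ replicates 1 to 4, and well above background on each. It was at the floor of -4.32 in all 4 Arg1- samples and in all 6 blood samples. Its processed signal before scaling was 20.2, 29.2, 29.0 and 41.4 in Arg1+ replicates 1 to 4, between 2.14 and 8.601 in the Arg1- samples, and between -3.25 and 2.13 in blood. The 4 Arg1+ samples thus stood apart from the other 10, at a signal that was low on every array.

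Some markers of other cells were higher in Arg1+ than in Arg1- cells, as Atp6v0d2 and Acp5 were. Between these groups 2.14% of all genes were called higher and 2.9% lower. Of 5 tested platelet markers, limma called 1 higher and 0 lower, the chemokine Ppbp (2.72 ± 0.43, adjusted p = 0.00181). Gp5 was above background on none of the 8 brain arrays and Gp9 on 1. The platelet sum was 6.495 to 12.4 in Arg1+ samples, 1.38 to 2.46 in Arg1- samples, 7.91 to 17.6 in post-TBI blood and 1.74 to 5.50 in normal blood. The platelet sums of the Arg1+ and post-TBI blood samples overlapped, while Atp6v0d2 was above background in the Arg1+ samples alone. These sums do not hold the same mix of markers. Ppbp was at 3.01 and the platelet marker Itga2b at -1.89 in Arg1+ samples (means), against 2.36 and 1.74 in post-TBI blood. Of 5 tested astrocyte and 5 tested neuron markers, 1 each was called higher and 0 lower, Gja1 (1.17 ± 0.21, adjusted p = 0.00369) and Nefl (1.02 ± 0.22, adjusted p = 0.0127), and the sums of both lists overlapped between the brain groups, at 1.84 to 4.10 against 2.05 to 3.63 and at 1.66 to 3.20 against 0.962 to 1.98. The part of such cells in the Atp6v0d2 and Acp5 differences was not tested.

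The Atp6v0d2 difference is again a bound. Atp6v0d2 was at least 3.103-fold higher in Arg1+ than in Arg1- cells and at least 3.25-fold higher than in post-TBI blood, with an Arg1+ mean of -2.62 ± 0.24 (SD, n = 4). Within slides 1 to 4, Arg1+ minus Arg1- was 1.76, 1.99, 1.61 and 1.44, the Arg1- value being the floor each time. With the floor raised to 0.2 no array rose above it and the difference was 0. Dcstamp and Atp6v0d2, which act together in osteoclast fusion, were therefore not measured above background in the same group. No sample of the 14 had Dcstamp, Ocstamp and Atp6v0d2 above background together.

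The subunits that share the pump with Atp6v0d2 were measured broadly. Of the V-ATPase subunits, 20 were tested, with a median difference of 0.44 (Arg1+ minus Arg1-), against 0 over all genes. limma called 5 higher and 0 lower in Arg1+ than in Arg1- cells (2.14% and 2.9% of all genes). These were Atp6v1a, the catalytic subunit (1.12 ± 0.18, adjusted p = 0.00186), Atp6v0c of the proton ring (0.88 ± 0.20, adjusted p = 0.0192), the accessory subunit Atp6ap1 (0.69 ± 0.15, adjusted p = 0.0161), Atp6v0e (0.60 ± 0.16, adjusted p = 0.0467) and Atp6v0d1. Atp6v0d1, the d subunit made in most cells and the counterpart of Atp6v0d2, was 0.62 ± 0.15 higher (adjusted p = 0.0216) and above background in all samples of both brain groups. Only 1 of the 5 stayed called after quantile normalization, after normexp, without Arg1- replicate 3 or without Arg1+ replicate 3, and that was Atp6v1a each time. Against post-TBI blood, 14 of the 20 were called higher and 0 lower in Arg1+ cells (19.9% and 20% of all genes). In Arg1- cells 7 were called higher and 0 lower (17% and 16.4% of all genes).

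**Figure D4:**
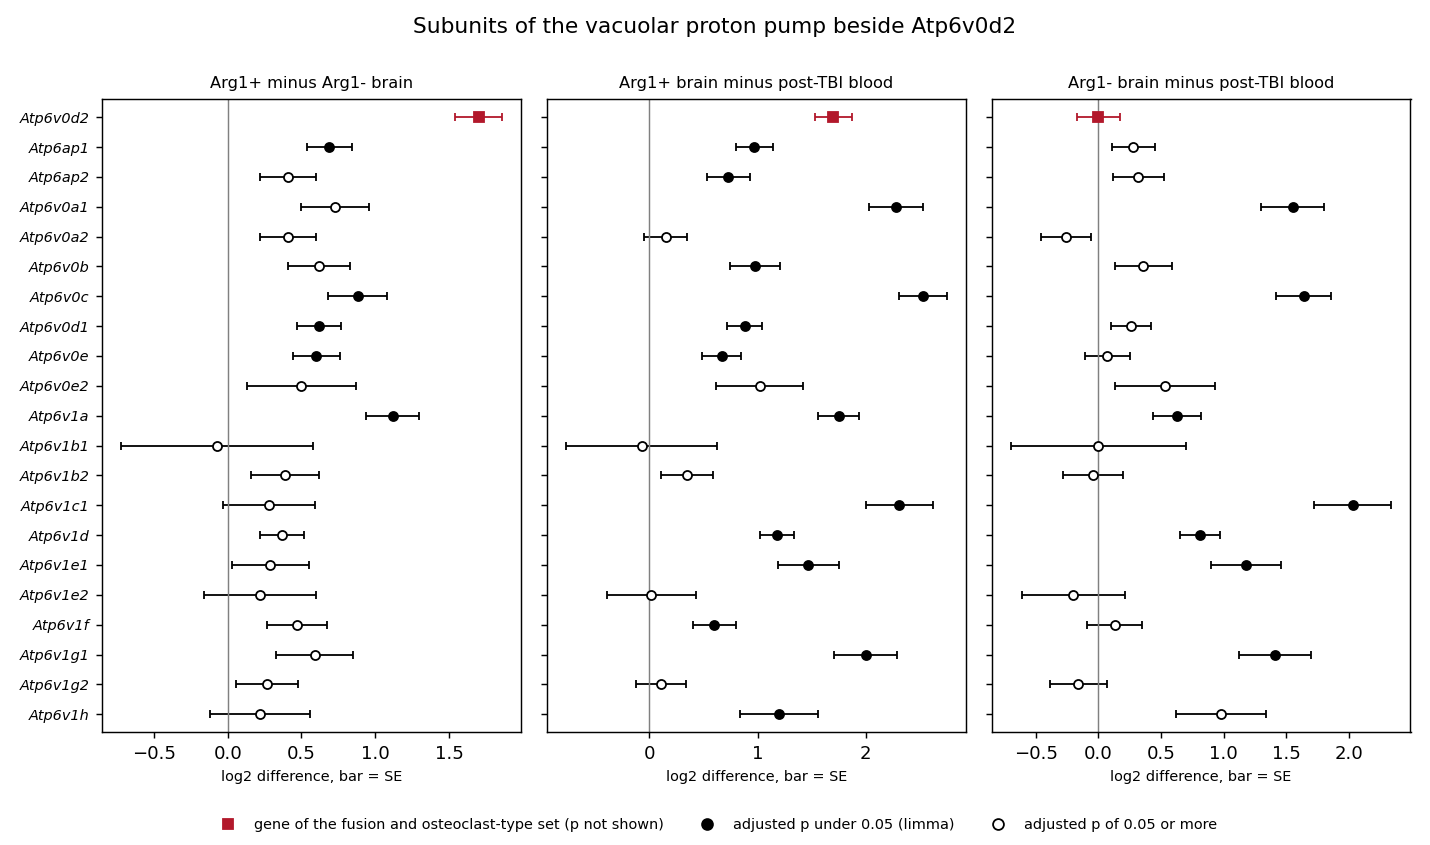
Difference (log2, bar = SE) of Atp6v0d2 and of 20 tested pump subunits in 3 comparisons. Filled circles passed an adjusted p of 0.05 in limma, open circles did not, and the square is Atp6v0d2, whose p is not shown. Atp6v0d2 was 1.70 above Arg1- cells, with the floor as the lower value, and 19 of the 20 other subunits lie above 0 in the left panel.

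Acp5 encodes tartrate-resistant acid phosphatase, an enzyme of osteoclasts and of several tissue macrophages. It was at 4.16, 4.38, 4.53 and 4.20 in Arg1+ replicates 1 to 4 and at 3.69, 3.49, 3.55 and 3.59 in Arg1- replicates 1 to 4. Post-TBI blood replicates 1, 3 and 4 were at 2.33, 2.12 and 2.94, and normal blood replicates 2, 3 and 4 at 1.92, 1.75 and 1.62. The 4 groups did not overlap at all, so that Acp5 was the member with a full order: Arg1+ above Arg1-, Arg1- above post-TBI blood, and post-TBI blood above normal blood.

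For Acp5, Arg1+ cells were 1.67-fold above Arg1- cells (0.74 ± 0.17), with 0.57, 0.85, 0.71 and 0.83 within slides 1 to 4. Arg1- cells were 2.17-fold above post-TBI blood (1.12 ± 0.18), and Arg1+ cells 3.62-fold above it (1.85 ± 0.18). Post-TBI blood was 1.63-fold above normal blood (0.70 ± 0.19), but within slides 1 to 3 the difference was 0.20, 1.32 and 0.59. The gap between the blood groups was thus smallest on slide 1 and largest on slide 2.

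Acp5 was the only one of the 6 genes whose post-TBI blood samples all lay above the normal ones, where 4.49% of all genes tested did and 4.77% lay wholly below. On the brighter probes 0 of the 6 were wholly below. limma called 0 of the 6 between the blood groups, where it called 0.15% of all genes, 0.109% higher and 0.041% lower. Ocstamp was 1.25 ± 0.45 higher in post-TBI than in normal blood, but the samples overlapped and the values within slides 1 to 3 were -0.03, 1.49 and 2.30. Nfatc1 differed by -0.13 ± 0.18 on its brighter and 0.06 ± 0.29 on its dimmer probe. Without post-TBI blood replicate 4 the Acp5 difference was 0.46, its lowest among the alternatives.

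The genes most like Acp5 were Scoc (0.21 log2 units), Ap5s1, a subunit of the adaptor complex AP-5 of late endosomes (0.22), and Slc35f6 (0.22). Scoc was at 0.96 ± 0.30, 0.33 ± 0.23, -0.84 ± 0.41 and -1.11 ± 0.11 (mean ± SD) in Arg1+, Arg1-, post-TBI blood and normal blood. For Tnfrsf11a the closest were Itga5, the fibronectin receptor chain (0.23), Ell2, a transcription elongation factor (0.24), and Ccnf, a cyclin (0.24). Atp6v0d2, with a range of 1.99 log2 units, and Nfatc1, with a range of 1.55, spanned less than the 2 units required for this search.

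Of 6 tested acid phosphatases other than Acp5, limma called 0 between Arg1+ and Arg1- cells (5.04% of all genes). An unadjusted p under 0.05 was found for 3, and the median difference was 0.05. Acp2, the lysosomal acid phosphatase, differed by 0.28 ± 0.12 (adjusted p = 0.229), with every Arg1+ array above every Arg1- array, and was higher than in post-TBI blood by 1.02 ± 0.13 in Arg1+ and by 0.74 ± 0.13 in Arg1- cells (adjusted p = 1.74e-05 and 0.000476).

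Other products of resorbing osteoclasts went both ways between the brain groups. Of 20 tested, limma called 5 higher and 3 lower in Arg1+ than in Arg1- cells (2.14% and 2.9% of all genes, median difference 0.24). The higher ones included Spp1, which encodes osteopontin (1.60 ± 0.19, adjusted p = 0.000167), the elastase Mmp12 (1.43 ± 0.22, adjusted p = 0.00157, with 3 Arg1+ arrays and 1 Arg1- array above background and the call lost with a floor of 0.2), the lysosomal adaptor Plekhm1 (1.12 ± 0.21, adjusted p = 0.00496) and the collagenase Ctsk (1.33 ± 0.30, adjusted p = 0.0183). The Ctsk call was lost in 6 of 23 alternative settings and that of Clcn7, the chloride channel of the resorbing membrane (adjusted p = 0.0465), in 15. The 3 lower ones were the pyrophosphate transporter Ank (-1.15 ± 0.25, adjusted p = 0.0151), the creatine kinase Ckb (-0.93 ± 0.19, adjusted p = 0.00898) and the semaphorin Sema4d (-0.65 ± 0.18, adjusted p = 0.0449). The call of Ank was lost without Arg1- replicate 3 and that of Sema4d in 17 of 23 alternative settings. Against post-TBI blood Ctsk was higher by 5.52 ± 0.33 in Arg1+ and by 4.19 ± 0.33 in Arg1- cells (adjusted p = 5.21e-09 and 1.94e-07).

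Other osteoclast markers went different ways beside Acp5. Mmp9, a gelatinase, was above background on all 4 arrays of each brain group, which differed by 0.14 ± 0.25 (adjusted p = 0.879). It was higher than in post-TBI blood by 1.93 ± 0.27 in Arg1+ and 1.79 ± 0.27 in Arg1- cells (adjusted p = 4.86e-05 and 0.000139). Oscar, a receptor, was above background on 2 of 4 Arg1+ and all 4 Arg1- arrays (difference -0.08 ± 0.33, adjusted p = 0.963). Calcr, the calcitonin receptor, was above background on 1 of 4 Arg1+ arrays and on 3 of 4 Arg1- arrays, and differed by -0.02 ± 0.25 (adjusted p = 0.996). Itgb3, the beta3 integrin, and Car2, a carbonic anhydrase, were above background on 4 and 3 of 4 Arg1+ arrays and on all 4 Arg1- arrays. Both were lower in Arg1+ cells than in post-TBI blood, by -4.45 ± 0.47 and -5.87 ± 0.63 (adjusted p = 2.47e-06 and 2.97e-06). In Arg1- cells they were lower by -3.69 ± 0.47 and -5.24 ± 0.63 (adjusted p = 2.42e-05 and 1.44e-05). Platelet markers, which share Itgb3 with osteoclasts, were likewise lower than in post-TBI blood. Of 5 tested, 4 were called lower in Arg1+ cells (20% of all genes) and 5 in Arg1- cells (16.4%). The 2 tested red cell markers, which share Car2, were called lower in both. The part of platelet and red cell RNA in these differences was not tested.

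**Figure D5:**
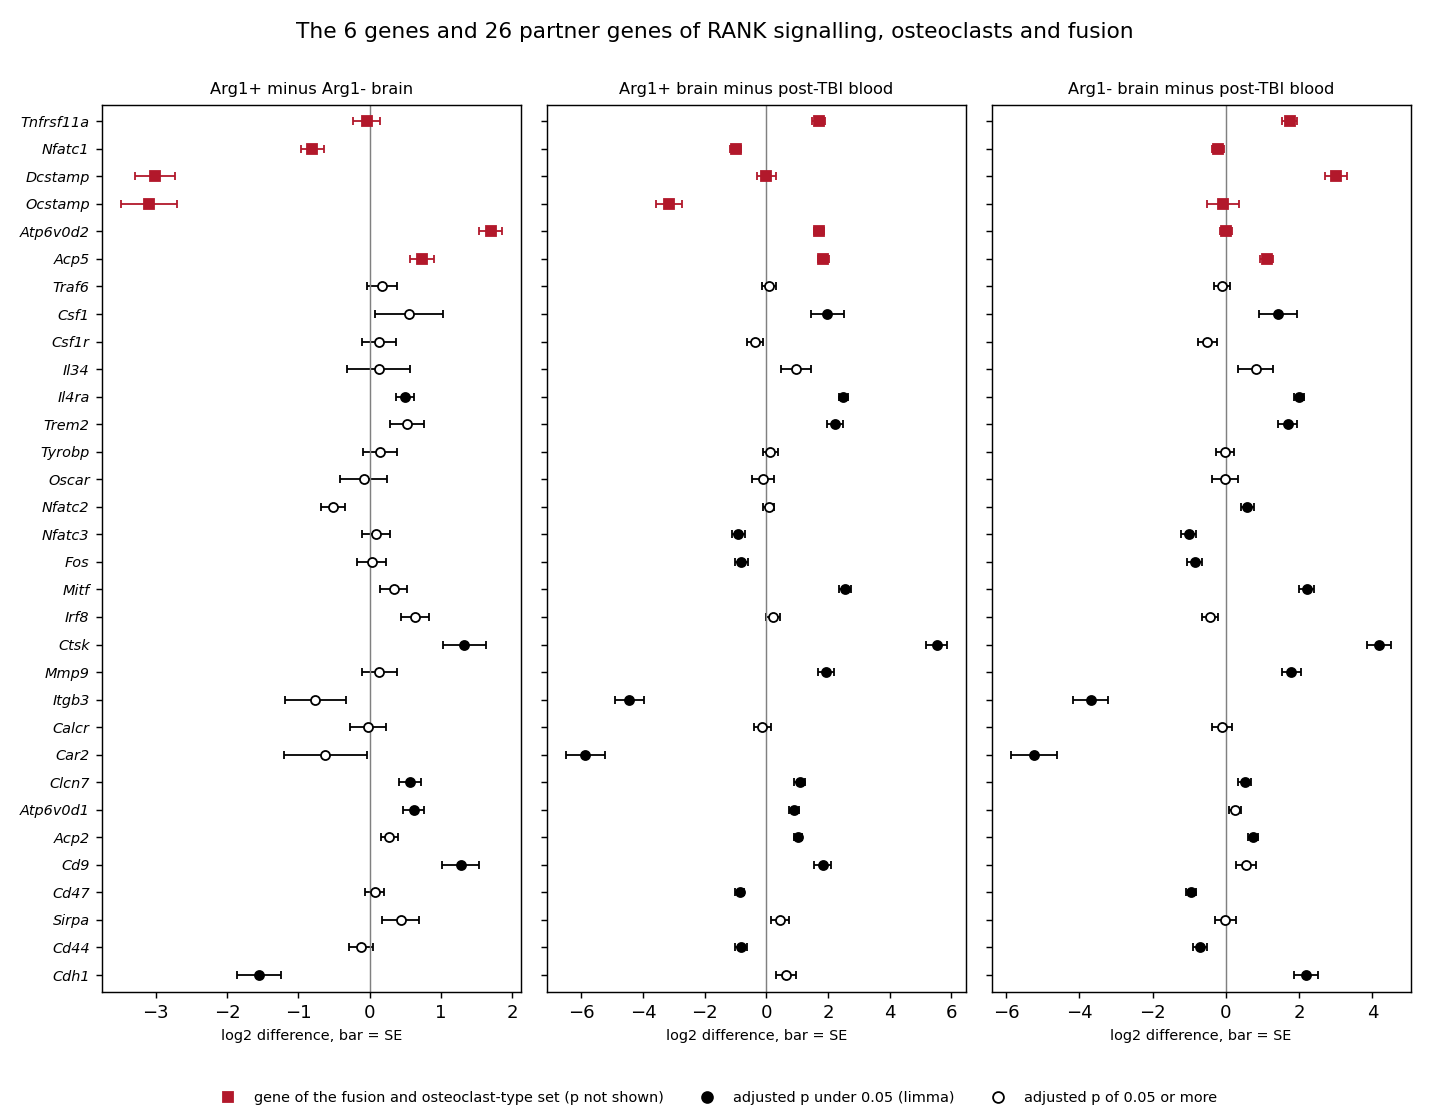
Difference (log2, bar = SE) of the 6 genes (squares, p not shown) and of 26 partner genes (circles, filled at an adjusted p under 0.05 in limma) in 3 comparisons. The left panel compares the brain groups, where 5 partners were called higher and 1 lower (2.14% and 2.9% of all genes). The other panels compare each brain group with the same 3 post-TBI blood samples.

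Upstream sequence could be set beside the expression of Acp5 and Tnfrsf11a, which were both above blood in both brain groups. The choice of these genes followed the sequence at hand and not their levels. There was no entry for Dcstamp, Ocstamp or Atp6v0d2. The lines give the 250 bases before each transcript start that RefSeq lists on GRCm38.p6, 5′ to 3′, with capitals for the motifs found: the NFAT core GGAAA, the PU.1 core GAGGAA, the AP-1 site TGANTCA and the E-boxes CACGTG and CATGTG of MITF-type factors, each searched on both strands. The Acp5 windows lie at chr9:22135747-22135996, chr9:22131866-22132115 and chr9:22130599-22130848 on the minus strand, and the Tnfrsf11a window at chr1:105780473-105780722 on the plus strand.
Acp5 start 1: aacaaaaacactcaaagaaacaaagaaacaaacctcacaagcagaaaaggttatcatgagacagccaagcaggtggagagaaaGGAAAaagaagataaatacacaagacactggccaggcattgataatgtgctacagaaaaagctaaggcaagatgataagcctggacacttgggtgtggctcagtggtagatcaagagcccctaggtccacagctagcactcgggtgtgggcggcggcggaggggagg
Acp5 start 2: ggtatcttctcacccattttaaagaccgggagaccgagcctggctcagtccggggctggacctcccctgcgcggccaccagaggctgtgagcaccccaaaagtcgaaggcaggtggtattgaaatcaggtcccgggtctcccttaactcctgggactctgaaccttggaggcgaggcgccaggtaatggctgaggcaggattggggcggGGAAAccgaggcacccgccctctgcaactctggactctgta
Acp5 start 3: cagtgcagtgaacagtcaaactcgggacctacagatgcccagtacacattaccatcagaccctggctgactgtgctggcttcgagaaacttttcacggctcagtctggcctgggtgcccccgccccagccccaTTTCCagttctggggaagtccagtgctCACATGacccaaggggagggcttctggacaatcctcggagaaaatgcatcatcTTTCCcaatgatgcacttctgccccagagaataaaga
Tnfrsf11a start 1: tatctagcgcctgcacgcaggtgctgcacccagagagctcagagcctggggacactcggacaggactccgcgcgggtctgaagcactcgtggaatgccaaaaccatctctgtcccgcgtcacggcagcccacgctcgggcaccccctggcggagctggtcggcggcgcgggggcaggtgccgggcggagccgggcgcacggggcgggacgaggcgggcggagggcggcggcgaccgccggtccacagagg

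Acp5 start 1 held 1 match to GGAAA, 167 bases before the start, and start 2 held 1 match, 41 bases before it. Acp5 start 3 held 2 matches on the reverse strand, at 117 and 37 bases, and 1 match to CATGTG on the reverse strand, at 90 bases. The Tnfrsf11a window held no match to any of the 5 motifs. Of 32851 RefSeq windows of the same length, 55.6% held GGAAA, 23.3% GAGGAA, 6.75% TGANTCA, 6.02% CACGTG and 12.3% CATGTG, and a GAGGAA followed by A would also count as GGAAA. The array does not tell which start of Acp5 was in use.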

How the data were processed

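RNA of 14 samples was amplified and hybridised to Agilent 1-colour arrays, per the labels' protocols. Per the file headers, each deposited scanner file gives a processed intensity per spot (background-subtracted and detrended), median spot and background intensities, and other columns such as 0 or 1 flags. The authors also deposited log2 values, whose ranks match the median spot signal within each array (Spearman 1) and whose medians lie between 6.16 and 6.19 in all arrays. The submitters' processing notes name limma without a version.

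The processed intensity of each array was divided by its 75th percentile over non-control spots, raised to at least 0.05 and log2 transformed. Outlier spots were set to missing. Probes with 2 or more usable arrays per group and well above background on 3 or more arrays were kept (27612 of 41174). Probes were named through RefSeq accessions (assembly GRCm38.p6; 24844 named), the brightest kept probe stood for a gene, and unnamed probes stayed alone, giving 21972 genes tested. All 14 arrays entered 1 limma fit (version 3.58.1, R 4.3.3, eBayes with trend, 10 residual degrees of freedom). It had no term for slide, so the adjusted p-values do not account for it. The p-values are two-sided, with Benjamini-Hochberg adjustment per comparison over all genes. The pipeline was tested on simulated data. Values after ± are standard errors unless SD is given.

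The 6 genes, the gene lists and the marker lists were chosen with earlier results of these data known. Genes named are the 6, a fixed set of partners (33, and 1 more that is not reported here), up to 4 called genes per direction in each list and comparison, and the 3 genes most like each eligible member. Genes with outlier spots (Fcer1g, Ppp3ca, Bcl6 and Tcirg1 among the partners) or dim probes (Tnfsf11, Tnfrsf11b, Lgr4) were not tested. "At least" folds compare the bright group's mean with, on each dim array, the higher of the probe's own level and the lowest level well above background. That lowest level is over all probes of the array and was often the floor. These folds therefore hold only for this floor and background subtraction, and other settings gave smaller differences.

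Deviations of arrays with the same replicate number from their group means correlated at -0.46 to 0.40 over genes (median -0.15, 18 pairs), so the numbers were not taken to pair samples. No 2 arrays were identical. Promoter sequence was not shown for the other members. Alternatives were another normalization, the authors' table, slide or replicate as a block, no filter on dim probes, a floor of 0.2, the mean of a gene's probes, outlier spots kept, and leaving out each array. Precision is limited by having 3 or 4 arrays in a group.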

Additional observations from a re-analysis of the deposited data

Results flagged for a closer look

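The dimmer Ocstamp probe in Arg1+ replicate 2 lay far from the other Arg1+ samples relative to their range, at -4.27 where the other 3 were at the floor of -4.32. None of the 4 was well above background, so the gap of 0.05 is among values that were not measured. It was the only one of 15 tested combinations of a probe and a brain group that stood out in this way, and no blood group was tested. With the other 3 values equal at the floor, any value off the floor would stand out. The usual rate of about 1 in 20 groups standing out by chance therefore does not apply to it.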

How the results depend on the processing

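Between Arg1+ and Arg1- cells, leaving out single arrays gave 602 (without Arg1- replicate 3) to 1782 called genes (without post-TBI blood replicate 4), with 701 without Arg1+ replicate 3, against 1108 with all arrays. With a floor of 0.2, 54.1% of the calls were higher, against 42.4%. Between the blood groups, where 33 genes were called, the count was 15 after normexp, 20 in the authors' table and 2 with the replicate block, and 2 (without post-TBI blood replicate 3) to 60 (without post-TBI blood replicate 1) with single arrays left out. The replicate block gave 831, 8092 and 6563 calls in the other 3 comparisons. The Arg1+ minus Arg1- differences kept their sign for the 5 genes that differed, except Atp6v0d2 with a floor of 0.2, at 0. After normexp, in the authors' table and with a floor of 0.2 they were -1.11, -1.59 and -1.01 for Dcstamp, -1.33, -1.77 and -1.09 for Ocstamp, and 0.66 and 0.93 for Atp6v0d2 in the first 2. These settings leave background in the signal or raise the floor, and so compress dim probes. For Acp5 quantile normalization, normexp and the authors' table gave 0.52, 0.54 and 0.58. The mean of both probes gave -2.55 for Ocstamp and -0.64 for Nfatc1. With single arrays left out, the ranges were -3.31 to -2.71 for Dcstamp, -3.20 to -2.93 for Ocstamp, 1.60 to 1.79 for Atp6v0d2, 0.67 to 0.79 for Acp5 and -0.85 to -0.74 for Nfatc1. Stat6, called higher in Arg1+ cells than in post-TBI blood (0.90), was at -0.01 as the mean of its probes and between -0.24 and -0.18 without any of 6 single arrays. The probe standing for Stat6 had 2 usable arrays in each of 3 groups, and leaving out any of these 6 put another of its 3 probes in its place. Dim signal limits Dcstamp, Ocstamp and Atp6v0d2, for which only bounds are given.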
